A study of Mus musculus with 12 samples.

Results

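The genes described here are 10 components of the Notch pathway: the receptors Notch1, Notch2, Notch3 and Notch4, the ligands Dll1, Dll4, Jag1 and Jag2, and the target repressors Hey1 and Hey2. They were chosen by name, with earlier results of these data known. Each was matched to the 1 row of the array's value table that the platform annotation gives it, and all 10 were found among 30743 genes with a row. Of these, 19675 genes passed a filter on dim values and were tested, and they include 9 of the 10 members. Hey2 did not pass. Expression was measured on whole-transcript arrays in endothelial cells from the ear skin of C57BL6 mice, given as adult and as 5 weeks old, in which the reporter Prox1-GFP, the transgene Tg(Prox1-EGFP)KY221Gsat, marks lymphatic endothelial cells (LEC). Cells were enriched for the endothelial protein PECAM1 and sorted by LYVE1, a receptor of lymphatic capillaries, into collecting vessel LEC in which it was low or missing (col LEC), LEC of pre-collectors in which it was intermediate (pre-col LEC), capillary LEC in which it was high (cap LEC), and blood endothelial cells without podoplanin, reporter or LYVE1 (BEC), with 3 arrays in each of the 4 groups. The mice of all groups carry the transgene, BEC being the cells without its signal, no group was treated, and the labels do not say whether a replicate is 1 mouse or a pool, so that p-values measure the spread between these arrays. Each group is a gate on surface LYVE1 rather than a dissected vessel segment.

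Notch is a signal between touching cells. A ligand of the Delta-like or Jagged family on one cell pulls on a Notch receptor on its neighbour, which is then cut by an ADAM protease and by gamma-secretase, and the freed intracellular part joins the DNA-binding protein RBPJ to switch on genes such as those of the Hey and Hes repressors. In blood vessels the pathway is known for selecting tip cells in sprouts, through DLL4, and for arterial identity. In lymphatic vessels NOTCH1 and DLL4 are known to take part in sprouting and in valve formation.

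Array medians lay between 6.06 and 6.17 on the log2 scale of RMA (robust multi-array average), in which 1 unit is a 2-fold difference of signal. Of the sort genes, Prox1 and Pecam1 followed the labels. Prox1 was between 12.38 and 12.60 on the 9 LEC arrays and between 6.55 and 7.55 in BEC, and Pecam1 was between 12.16 and 12.62 on all 12 arrays. They do not check the LYVE1 gates. The mean log2 level of a list of lymphatic markers was between 11.86 and 12.09 in col LEC and between 12.38 and 12.55 in pre-col LEC. In cap LEC it was between 12.63 and 12.68. The list as drawn up includes the sort genes Prox1, Pdpn and Lyve1, so that its order over the LEC groups is no independent check of the gates. BEC replicate 1 stood apart in lymphatic markers, with a list mean of 8.24 against 7.11 and 7.21 on BEC replicates 2 and 3 and Mmrn1 at 9.84 against 6.55 and 6.52, while LEC arrays had list means between 11.86 and 12.68. Without that array the same number of members, 7, were called in the LEC mean against BEC. The 95th percentile of the array's 5222 negative control rows lay between 8.92 and 9.34. Values of Notch3, Notch4 and Jag2 in LEC, of Notch2 in BEC and of Dll1 everywhere were below it. By that measure these values were not set apart from background, and the differences can be compressed. In cell populations measured as a whole, fewer cells of a type and less RNA per cell cannot be told apart.

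Most members split LEC from BEC. Between LEC groups 0 of 9 members tested were called, which is near the share of all genes, at most 1.64% in any of these comparisons. Against BEC, the mean of the LEC groups was higher for Notch2 and lower for Notch3, Notch4, Dll4, Jag1, Jag2 and Hey1, at an adjusted p under 0.05 in limma's test across all genes. That is 7 of 9 members tested, 1 higher and 6 lower, against 22.6% of all genes tested (12% higher and 10.6% lower). The median difference was -0.82 over the 9 members and -0.015 over all genes. Notch1 and Dll1 did not pass.

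**Figure D1:**
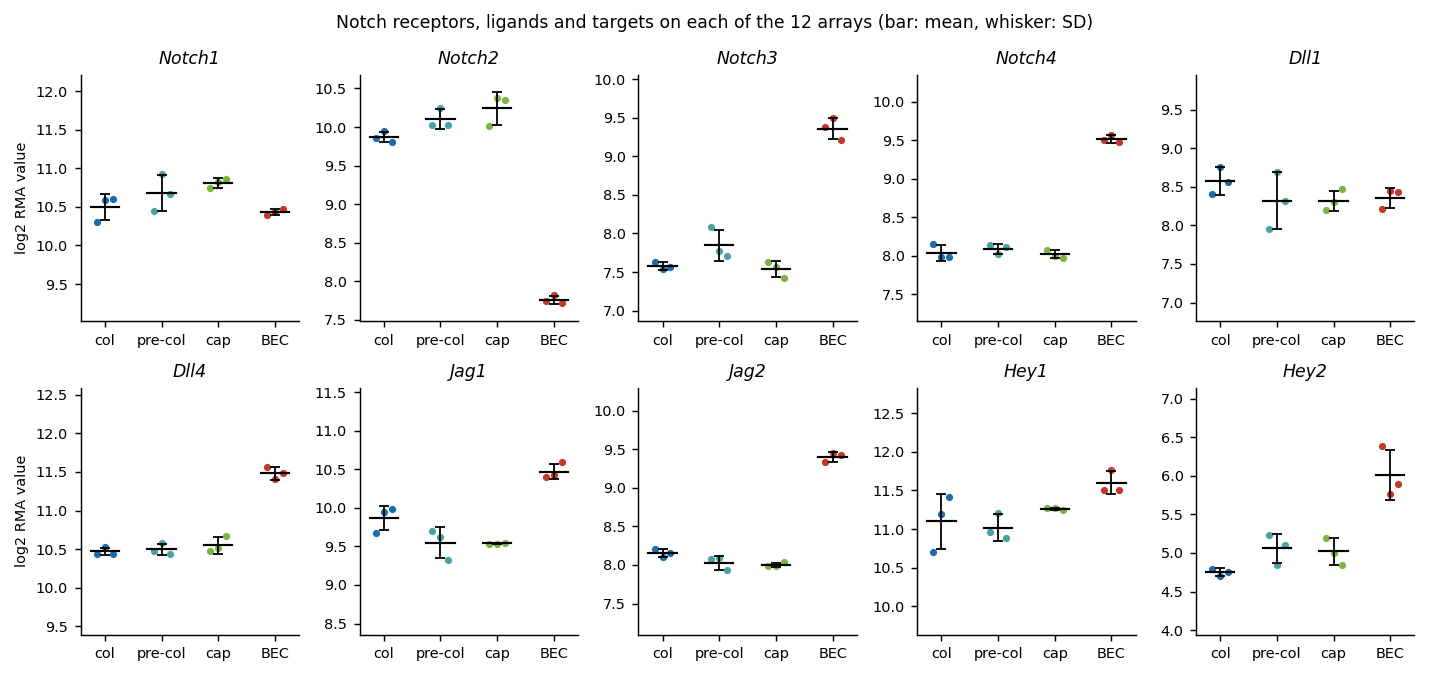
Log2 RMA value of each of the 10 members on each of the 12 arrays (points), with the mean (bar) and SD (whisker) of the 3 arrays in col LEC, pre-col LEC, cap LEC and BEC; every panel spans the same range on its own axis. Notch2 is high in all LEC groups and near 7.8 in BEC, while Notch3, Notch4, Dll4, Jag1, Jag2, Hey1 and Hey2 show the opposite split with no overlap. The gap is small for Hey1, and Hey2 lies near background.

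Notch2, a receptor found in many tissues, was the member that marked lymphatic cells. Its values were 9.86, 9.95 and 9.80 in col LEC, 10.02, 10.25 and 10.02 in pre-col LEC, 10.01, 10.37 and 10.35 in cap LEC, and 7.75, 7.82 and 7.72 in BEC. Every LEC array lay about 2 log2 units above every BEC array, and the BEC arrays lay close together. Against BEC the log2 fold change was 2.11 ± 0.11 for col LEC, 2.34 ± 0.11 for pre-col LEC and 2.48 ± 0.11 for cap LEC (SE, n = 3 arrays per group, limma adjusted p = 4.02e-08, 1.75e-08 and 9.98e-09). On the linear scale the mean of the LEC groups was 4.96-fold that of BEC (adjusted p = 1.81e-09). In order of level, cap LEC came first, then pre-col LEC, col LEC and BEC, and only the step between col LEC and BEC passed the test.

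Notch4, a receptor best known from blood vessel endothelium, ran the other way. It was at 8.15, 7.99 and 7.98 in col LEC, 8.14, 8.03 and 8.11 in pre-col LEC, 8.08, 8.0 and 7.97 in cap LEC, and 9.50, 9.56 and 9.47 in BEC. The LEC groups overlapped each other and all lay under BEC. Relative to BEC the log2 fold change was -1.47 ± 0.08 for col LEC, -1.42 ± 0.08 for pre-col LEC and -1.49 ± 0.08 for cap LEC (SE, n = 3 per group, limma adjusted p = 4.63e-08, 6.2e-08 and 3.49e-08), so that the BEC level was 2.75-fold the mean of the LEC groups. The order of means was BEC, pre-col LEC, col LEC and cap LEC, with only the first step past the test.

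Notch3, which is known chiefly from mural cells, the pericytes and smooth muscle cells around blood vessels, was at 7.63, 7.54 and 7.57 in col LEC and at 8.08, 7.77 and 7.71 in pre-col LEC. It was at 7.63, 7.57 and 7.42 in cap LEC and at 9.38, 9.50 and 9.21 in BEC. BEC stood above all LEC arrays, and pre-col LEC stood slightly above the other LEC groups. The log2 fold change against BEC was -1.78 ± 0.11 for col LEC, -1.505 ± 0.11 for pre-col LEC and -1.82 ± 0.11 for cap LEC (SE, n = 3 per group, limma adjusted p = 2.45e-07, 1.05e-06 and 1.74e-07). The levels ran from BEC through pre-col LEC and col LEC to cap LEC, and the steps between LEC groups did not pass.

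Mural cell markers, like Notch3, were lower in LEC than in BEC, a split shared by Notch4, Dll4, Jag1, Jag2 and Hey1. Of 12 mural markers tested, 11 were lower in the mean of the LEC groups than in BEC (median log2 fold change -1.75) and 0 were higher. Over all genes tested, 10.6% were lower. The mean log2 level of the list was between 7.07 and 7.12 in col LEC, between 7.22 and 8.21 in pre-col LEC, between 6.97 and 7.49 in cap LEC and between 9.12 and 9.34 in BEC, and no marker was below the array median on all arrays. Rgs5, a pericyte gene, averaged 7.33 ± 0.71 in col LEC, 9.02 ± 1.14 in pre-col LEC, 7.49 ± 1.11 in cap LEC and 11.45 ± 0.35 in BEC (SD, n = 3). The array with the most mural signal among LEC, pre-col LEC replicate 1 at 8.21, also had the highest LEC value of Notch3. It also had the highest mean level of 9 fibroblast markers on any array, 8.25, against at most 7.55 on the others. Without it the log2 fold change of Notch3 in pre-col LEC was 0.20 against cap LEC (adjusted p = 0.987), where it had been 0.32 (adjusted p = 0.747), and -1.62 against BEC (adjusted p = 8.05e-07). The part of mural or fibroblast RNA in the level of Notch3, or of any other member, was not tested.

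**Figure D2:**
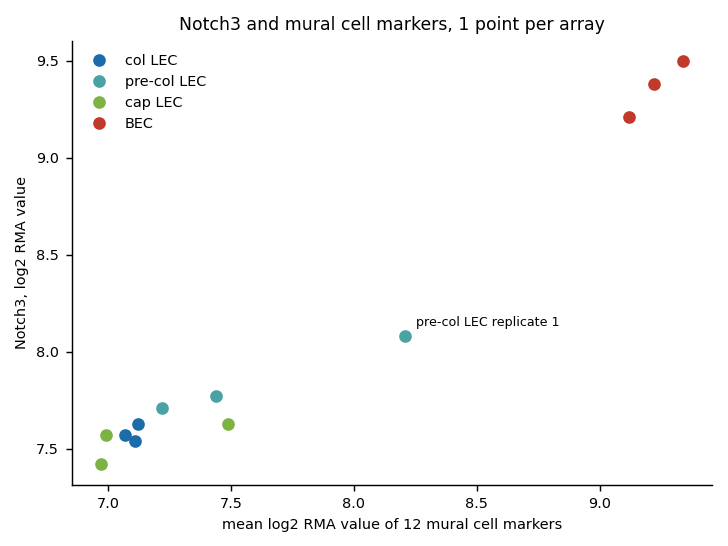
Notch3 (vertical axis, log2 RMA value) against the mean log2 RMA value of 12 mural cell markers (horizontal axis), 1 point per array, coloured by group. The 3 BEC arrays lie at the top right, the LEC arrays at the lower left, and pre-col LEC replicate 1 lies between them.

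Notch1, the receptor most studied in endothelial sprouting, differed little between the cell types. It was at 10.31, 10.59 and 10.60 in col LEC, 10.45, 10.92 and 10.67 in pre-col LEC, 10.74, 10.82 and 10.86 in cap LEC, and 10.39, 10.43 and 10.47 in BEC. Only the cap LEC arrays all lay above the BEC arrays. The log2 fold change of cap LEC against BEC was 0.38 ± 0.12 (SE, n = 3 per group, limma adjusted p = 0.0381), and neither col LEC (0.08, 95% confidence interval -0.18 to 0.33) nor pre-col LEC (0.25, interval -0.005 to 0.51) passed against BEC. The cap LEC call was fragile. It ended without any 1 of the 3 cap LEC arrays (adjusted p = 0.0566, 0.0969 and 0.116 for replicates 1, 2 and 3) or the 3 BEC arrays (0.0846, 0.0721 and 0.0717), without pre-col LEC replicate 3 (0.0528), and when arrays were scaled by cyclic loess, where the log2 fold change was 0.20 (adjusted p = 0.263). No neighbouring groups in the order cap LEC, pre-col LEC, col LEC and BEC differed past the test. For the mean of the LEC groups the log2 fold change was 0.24 (adjusted p = 0.104), and it passed without pre-col LEC replicate 1 (0.27, adjusted p = 0.0374).

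Among the ligands, Dll4, which restrains sprouting of neighbouring endothelial cells, was at 10.44, 10.53 and 10.44 in col LEC, 10.48, 10.58 and 10.44 in pre-col LEC, 10.47, 10.51 and 10.67 in cap LEC, and 11.56, 11.41 and 11.48 in BEC. The LEC arrays formed a single band about 1 unit under BEC. The log2 fold change against BEC was -1.01 ± 0.08 for col LEC, -0.98 ± 0.08 for pre-col LEC and -0.93 ± 0.08 for cap LEC (SE, n = 3 per group, limma adjusted p = 2.25e-06, 2.76e-06 and 4.23e-06). The means ran from BEC through cap LEC and pre-col LEC to col LEC, with only the first step past the test.

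Jag2, a second Jagged ligand of endothelium and epidermis, was at 8.20, 8.10 and 8.15 in col LEC, 8.08, 8.09 and 7.93 in pre-col LEC, 7.98, 7.99 and 8.04 in cap LEC, and 9.34, 9.45 and 9.42 in BEC. All LEC arrays lay below all BEC arrays, by 1 unit or more. The BEC level was 2.53-fold the mean of the LEC groups (log2 fold change of LEC against BEC -1.34 ± 0.06, SE, limma adjusted p = 7.65e-09). The order was BEC, col LEC, pre-col LEC and cap LEC, and the 2 steps between LEC groups did not pass. Of 6 keratinocyte markers tested out of 10, 3 were also lower in the mean of the LEC groups than in BEC, the list's mean log2 level being between 6.31 and 6.67 on LEC arrays and between 6.66 and 7.03 on BEC arrays. Krt5, Krt14, Krt15, Sfn and Perp were above the array median on all 12 arrays, Krt1, Trp63 and Dsg3 on none, and the 3 that were lower were Sfn (-1.11), Krt5 (-0.44) and Krt14 (-0.41). The part of epidermal RNA in Jag2 was not tested.

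Jag1, the Jagged ligand that competes with DLL4 in sprouting vessels, had the widest spread among LEC groups of the ligands that differed. It was at 9.68, 9.94 and 9.98 in col LEC, 9.70, 9.62 and 9.32 in pre-col LEC, 9.53, 9.53 and 9.55 in cap LEC, and 10.40, 10.43 and 10.59 in BEC. BEC was highest, and col LEC lay between BEC and the other LEC groups, overlapping pre-col LEC by 1 array. Set against BEC, it was lower in every LEC group, by a log2 fold change of -0.60 ± 0.11 for col LEC, -0.92 ± 0.11 for pre-col LEC and -0.93 ± 0.11 for cap LEC (SE, n = 3 per group, limma adjusted p = 0.00227, 7.75e-05 and 6.29e-05). The step between col LEC and pre-col LEC in this order did not pass (0.32, interval 0.08 to 0.56, adjusted p = 0.568).

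Dll1, a Delta-like ligand, did not pass in any comparison. It was at 8.41, 8.76 and 8.56 in col LEC, 7.95, 8.69 and 8.31 in pre-col LEC, 8.20, 8.30 and 8.47 in cap LEC, and 8.21, 8.45 and 8.43 in BEC. All groups overlapped. Against BEC the 95% confidence intervals of the log2 fold change were -0.15 to 0.57 for col LEC, -0.41 to 0.31 for pre-col LEC and -0.40 to 0.32 for cap LEC.

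Of the target genes, Hey1 encodes a repressor that Notch switches on in endothelium. It was at 10.70, 11.19 and 11.41 in col LEC, 10.96, 11.21 and 10.89 in pre-col LEC, 11.27, 11.27 and 11.25 in cap LEC, and 11.51, 11.76 and 11.51 in BEC. All LEC arrays lay under all BEC arrays, but col LEC spread over 0.7 units. The log2 fold change against BEC was -0.58 ± 0.16 for pre-col LEC (SE, n = 3 per group, limma adjusted p = 0.0259), -0.50 ± 0.16 for col LEC (adjusted p = 0.0503) and -0.33 ± 0.16 for cap LEC (adjusted p = 0.156). For the mean of the LEC groups it was -0.47 ± 0.13 (adjusted p = 0.0194), and this call ended without BEC replicate 2 (-0.38, adjusted p = 0.0924). The pre-col LEC call ended without BEC replicate 2 (adjusted p = 0.0875) and without pre-col LEC replicates 1 or 3 (0.0778 and 0.0999). Without col LEC replicate 3, col LEC passed (-0.65, adjusted p = 0.0135). Col LEC also passed with a stricter filter on dim genes (adjusted p = 0.0478) and with another variance prior (0.0438). Scaling by cyclic loess brought both col LEC and cap LEC past the threshold (-0.65 and -0.52, adjusted p = 0.00903 and 0.0256). No neighbouring groups in the order BEC, cap LEC, col LEC and pre-col LEC differed past the test.

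Hey2, the related repressor known from arterial identity, was dim. Its values were 4.79, 4.70 and 4.75 in col LEC, 5.23, 4.85 and 5.10 in pre-col LEC, 5.2, 5.0 and 4.85 in cap LEC, and 6.38, 5.77 and 5.89 in BEC. It was above the array median on 1 array, BEC replicate 1, and so was left out of the test. On LEC arrays it lay below the median of the negative control rows, which was between 5.56 and 5.94. When every gene was tested without the filter, the log2 fold change against BEC was -1.27 ± 0.15 for col LEC, -0.95 ± 0.15 for pre-col LEC and -0.996 ± 0.15 for cap LEC (SE, n = 3 per group, limma adjusted p = 0.000127, 0.00118 and 0.000769). Leaving out any 1 of the 12 arrays kept these calls, with adjusted p at most 0.00686. The difference is between values near background.

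RBPJ, through which all Notch receptors act, binds the core TGGGAA, most strongly within GTGGGAA. Both were searched on both strands in RefSeq promoters (GRCm38.p6, 250 bases before to 50 after the start of transcription); every GTGGGAA also counts as a TGGGAA. Of 9 members with a promoter entry, all but Hey1, Hey2 alone held either motif. It holds GTGGGAA once on each strand, at positions -207 and -4 from the start. In the table as a whole 6.38% of 32851 promoters held GTGGGAA and 25.6% held TGGGAA. Among 7 other direct targets with an entry, Hes7 held GTGGGAA once, at -180, and Hes5 held GTGGGAA on both strands, at -226 and -83, a layout found in 0.1% of all promoters. Both sequences are shown because they carry the letters through which the pathway is known to act. Hey2 differed only between values near background, and Hes5 lay below the 95th percentile of the negative controls on all 12 arrays. The data do not set apart a target that responds from one that does not. Capitals mark GTGGGAA or its reverse complement, and the sequences read 5′ to 3′ on the gene's strand, for Hey2 at chr10:30842734-30843033 (minus strand) and for Hes5 at chr4:154960673-154960972 (plus strand).
Hey2: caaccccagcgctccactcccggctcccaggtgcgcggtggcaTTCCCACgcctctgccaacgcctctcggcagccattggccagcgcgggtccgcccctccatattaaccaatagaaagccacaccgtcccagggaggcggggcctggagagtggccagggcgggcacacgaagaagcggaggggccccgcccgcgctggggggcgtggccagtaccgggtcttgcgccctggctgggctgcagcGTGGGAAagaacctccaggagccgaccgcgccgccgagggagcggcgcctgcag
Hes5: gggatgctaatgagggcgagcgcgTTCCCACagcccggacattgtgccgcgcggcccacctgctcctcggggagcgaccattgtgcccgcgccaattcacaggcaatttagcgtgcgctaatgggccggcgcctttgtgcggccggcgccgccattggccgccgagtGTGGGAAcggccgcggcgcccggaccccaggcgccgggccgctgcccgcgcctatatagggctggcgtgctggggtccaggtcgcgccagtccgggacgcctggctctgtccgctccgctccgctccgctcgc
A match is a description of the letters and not a site shown to be bound. Hes5 was between 7.62 and 7.70 in col LEC, between 7.58 and 7.71 in pre-col LEC, between 7.32 and 7.69 in cap LEC and between 7.65 and 7.83 in BEC, and the groups overlapped.

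Within the lymphatic tree no member passed. In col LEC against cap LEC, 0 of 9 members were called by limma, against 1.64% of all genes tested (0.651% higher and 0.986% lower). An unadjusted p under 0.05 was found for 10.5% of all genes and for 3 members. These were Notch2 at -0.37 (interval -0.60 to -0.14, adjusted p = 0.142), Jag1 at 0.33 (interval 0.09 to 0.57, adjusted p = 0.24) and Notch1, with a 95% confidence interval from -0.56 to -0.05 (adjusted p = 0.346). For Notch2 and Notch1 every col LEC array lay below every cap LEC array, and for Jag1 every col LEC array lay above. The arrays were also apart for Jag2 (col LEC above) and for Hey2 (col LEC below, near background), neither with an unadjusted p under 0.05. How many of all genes separate in this way was not counted. Weighting the arrays brought Notch2 past the threshold (-0.42, adjusted p = 0.0261), as did leaving out cap LEC replicate 1 (-0.49, adjusted p = 0.0411).

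In col LEC against pre-col LEC, 0 of 9 members were called, against 0.3% of all genes (0.117% higher and 0.183% lower). An unadjusted p under 0.05 was found for 5.84% of all genes and for 2 members. The 2 were Jag1 at 0.32 and Notch3, with an interval from -0.52 to -0.03. In pre-col LEC against cap LEC, 0 of 9 were called, as were 0.0% of all genes. Of all genes, 1257 (6.39%) had an unadjusted p under 0.05, and Notch3 was the 1 member with such a p. The widest 95% confidence interval in these comparisons, that of Dll1, reached 0.62 on the log2 scale. In each LEC group against BEC the members' counts were 1 higher and 5 lower for col LEC (16.2% of all genes, 8.31% higher and 7.93% lower), 1 higher and 6 lower for pre-col LEC (15.5%, with 7.38% higher and 8.15% lower), and 2 higher and 5 lower for cap LEC (20.7%, with 11.2% higher and 9.55% lower). These comparisons share the same BEC arrays.

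**Figure D3:**
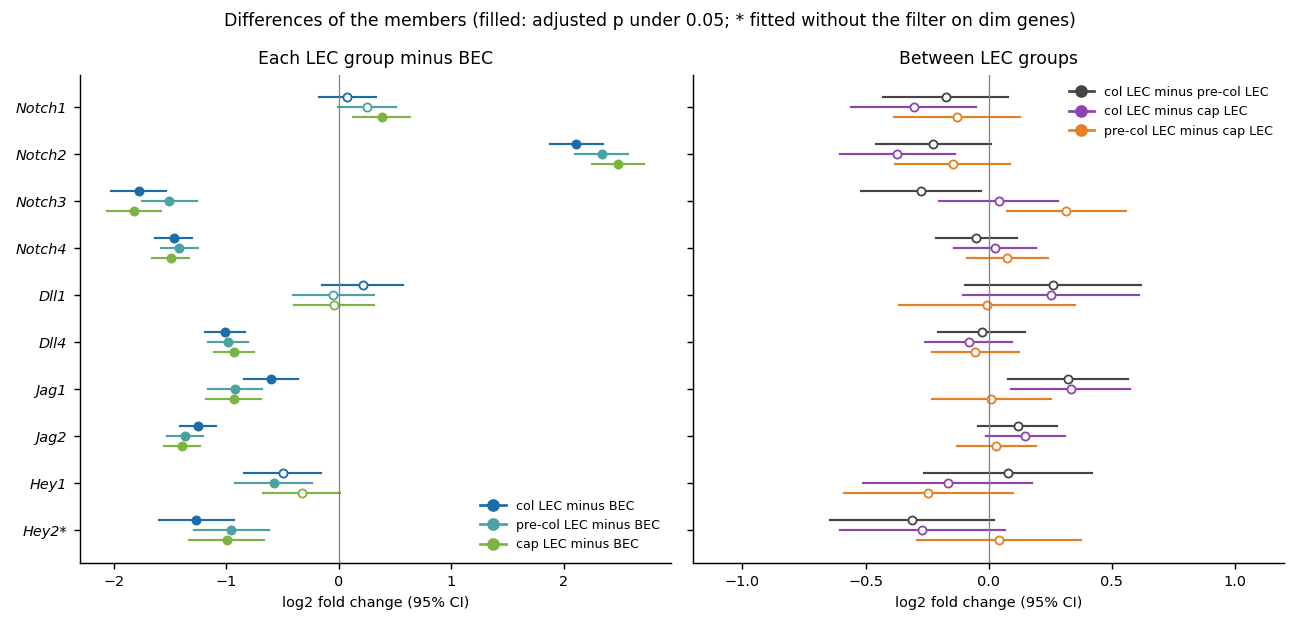
Log2 fold change (horizontal axis) of each member with its 95% confidence interval, for each LEC group against BEC on the left and between LEC groups on the right; filled points have an adjusted p under 0.05, and Hey2 was fitted without the filter on dim genes. Notch2 lies near 2.3 against BEC, Notch3, Notch4, Dll4, Jag1, Jag2 and Hey2 lie below 0, and all points between LEC groups are open.

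The members' profiles were also set beside those of 14057 named genes over the 12 arrays, each centred on its own mean. Likeness was the root mean square difference of the centred log2 values. Nearest to Notch2 were Kbtbd11, Ston2 and the inhibitory receptor gene Sirpa (0.146, 0.146 and 0.147, against a median of 1.03 for all genes). Nearest to Notch4 were Krt222, the transcription factor gene Tbx3 and the TNF receptor gene Tnfrsf1b (0.068, 0.084 and 0.10, median 0.647), and nearest to Notch3 were Cecr2, the integrin gene Itgb5 and Cadm3 (0.089, 0.101 and 0.115, median 0.765). Among the members themselves, Notch4 and Jag2 were closest to each other (0.105), followed by Notch3 and Notch4 (0.166), and Notch2 stood farthest from Notch3 (1.75).

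For the ligands, Dll4 was most like Akap2, Cbr2 and Jcad (0.095, 0.095 and 0.096, median 0.451). Jag2 was most like Pitpnm2, Msmp and Mrtfb (0.078, 0.085 and 0.087, median 0.597). Jag1 was most like Helz2, the endothelial transcription factor gene Sox7 and Rcn1 (0.11, 0.114 and 0.116, median 0.42). Hey1 was most like the oxygen sensor gene Egln1, Edem1 and the caveolar gene Cavin1 (0.09, 0.097 and 0.135, median 0.317), and Notch1 like Septin9, Nop9 and Elk3 (0.073, 0.076 and 0.077, median 0.25).

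Other genes were taken from lists of 93 genes drawn up by role, of which 83 were tested. The lists include 19 tested arterial genes and 7 tested venous genes, which are linked with vessel identity and are not parts of the pathway itself. In the mean of the LEC groups against BEC, 16 were higher and 26 lower, with a median log2 fold change of -0.09, where 22.6% of all genes were called, 12% higher and 10.6% lower. Of these calls, the arterial list gave 5 higher and 10 lower, and the venous list 1 higher and 4 lower. The same shares of all genes stand behind each list count below, and no list was tested as a set. Between LEC groups 1 of 83 passed, in col LEC against cap LEC, near the share of all genes called there (1.64%). It was the matrix gene Mfap2, whose product can bind Notch ligands. Mfap2 was at 8.0, 8.38 and 8.16 in col LEC against 7.40, 7.40 and 7.21 in cap LEC (0.84 ± 0.12, SE, limma adjusted p = 0.00328). All col LEC arrays of Mfap2 lay above all cap LEC arrays. On all 12 arrays Mfap2, Dlk1, Dlk2, Neurl3, Psen2, Aph1c, Dtx4, Nrarp, Heyl, Hes1, Hes5 and Mecom lay below the 95th percentile of the negative controls. By that measure they were not set apart from background, and their differences can be compressed. The same limit holds for most arrays of Mfng, Sox17 and Rbpj, above that percentile on 2 of 12. It also holds for most arrays of Neurl1b, Tle1, Dtx3l and Bmx, above it on 1. The non-canonical ligand genes Dlk1 and Dlk2 were lower in the mean of the LEC groups than in BEC, by log2 fold changes of -0.31 and -0.23 (adjusted p = 0.00458 and 0.0142, the second ending without BEC replicate 2 at adjusted p = 0.0684).

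A further list held enzymes that sugar the receptors, ubiquitin ligases that activate the ligands, and the epsin genes Epn1 and Epn2. In it 3 of 12 genes were lower in the mean of the LEC groups than in BEC and 0 higher. The median was -0.09, and the called share was near that of all genes (22.6%). Mfng, a fringe glycosyltransferase that alters which ligands a Notch receptor answers, was at 6.71, 7.05 and 6.68 in col LEC, 7.41, 6.92 and 6.79 in pre-col LEC, 6.83, 6.65 and 6.40 in cap LEC, and 8.83, 9.21 and 9.04 in BEC. It separated the cell types without overlap, with a log2 fold change of -2.20 ± 0.14 (SE, limma adjusted p = 2.15e-07). Neurl1b and Neurl3, of the neuralized ubiquitin ligase family, were lower by -1.47 ± 0.10 and -1.34 ± 0.10 (adjusted p = 2.17e-07 and 5.55e-07). Lfng and Rfng, the other fringe genes, did not pass.

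Of the genes of receptor cleavage, 5 of 9 tested were higher in the mean of the LEC groups than in BEC and 1 lower, with a median of 0.31, where 12% of all genes were higher and 10.6% lower. The calls of Psenen (higher) and Adam17 (lower) ended in some alternatives, at adjusted p up to 0.203 and 0.16. Aph1b, a subunit of gamma-secretase, was at 9.42, 9.65 and 9.18 in col LEC, 9.25, 9.39 and 9.21 in pre-col LEC, 9.71, 9.82 and 9.52 in cap LEC, and 7.04, 7.54 and 8.04 in BEC (1.92 ± 0.17, SE, limma adjusted p = 3.22e-06). Its close copy Aph1c was higher by 0.79 ± 0.11 (adjusted p = 0.000194), and as the copies can share probes neither is certain as a single gene. Psen2, a catalytic presenilin, was higher by 0.74 ± 0.07 (adjusted p = 9.23e-06), and Adam10, the protease that makes the first cut after ligand binding, by 0.73 ± 0.13 (adjusted p = 0.00169). For each of these 4 genes all LEC arrays lay above all BEC arrays.

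**Figure D4:**
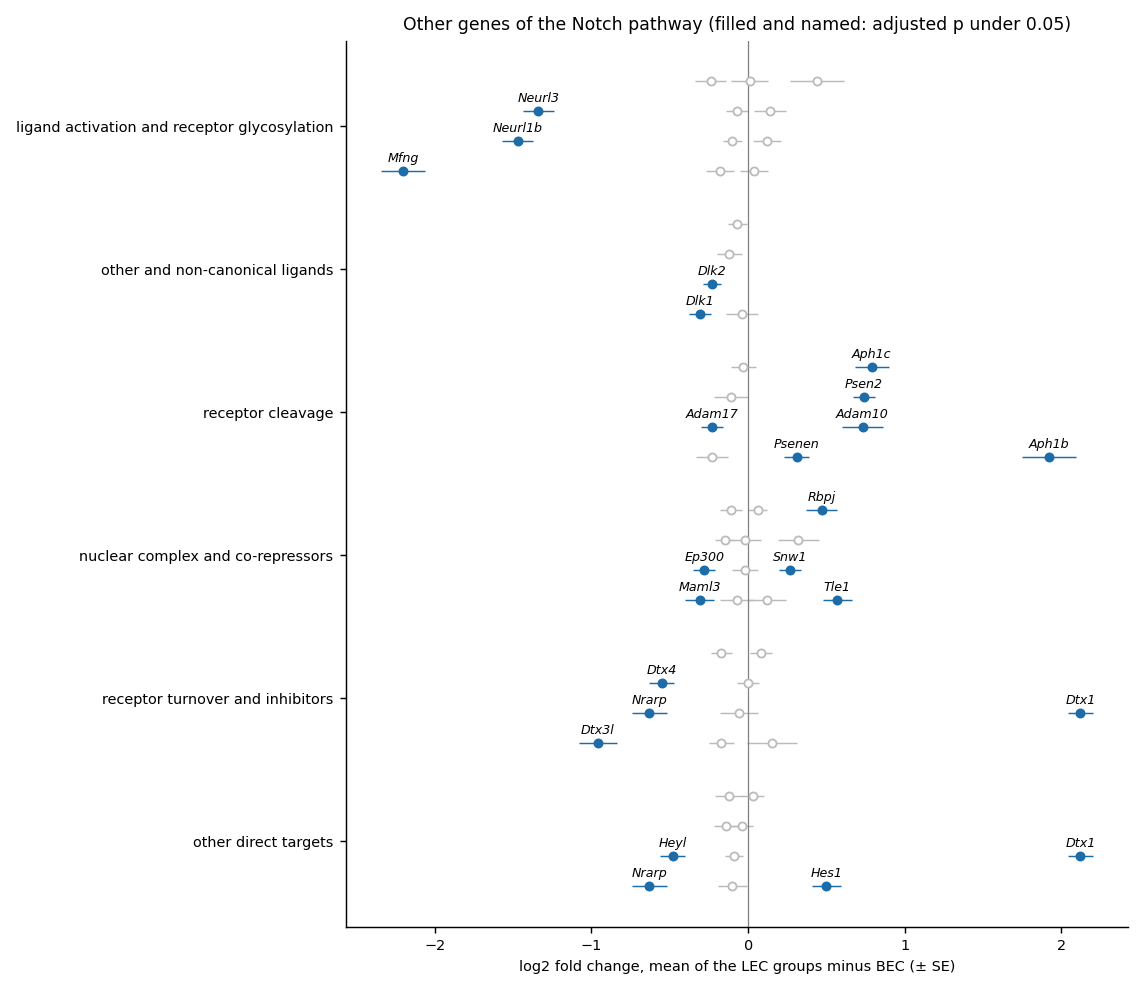
Log2 fold change (horizontal axis, ± SE) of other pathway genes in the averaged LEC groups relative to BEC, grouped by role, without the arterial and venous lists; filled, named points have an adjusted p under 0.05. Of the genes drawn, Mfng lies farthest to the left and Dtx1 farthest to the right, and Dtx1 and Nrarp stand in 2 lists.

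In the nuclear complex, 3 of 13 genes tested were higher in the mean of the LEC groups than in BEC and 2 lower (median -0.02). Rbpj itself was at 9.41, 9.25 and 9.12 in col LEC, 8.93, 9.20 and 8.98 in pre-col LEC, 9.04, 9.10 and 9.01 in cap LEC, and 8.37, 8.74 and 8.84 in BEC. No LEC array was as low as a BEC array (0.47 ± 0.10, SE, limma adjusted p = 0.00557). By group, Rbpj was called in col LEC against BEC in all 20 alternatives. Its cap LEC call ended in 10 of 20, at adjusted p up to 0.136, and pre-col LEC did not pass. The co-repressor gene Tle1 was higher by 0.57 ± 0.09 (adjusted p = 0.000485) and Snw1, whose product joins the RBPJ complex, by 0.27 ± 0.07 (adjusted p = 0.0176). The co-activator gene Ep300 was lower by -0.28 ± 0.07 (adjusted p = 0.0131). Without BEC replicate 1 both Snw1 and Ep300 lost their call.

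Regulators of receptor turnover and the other targets contained genes that moved in opposite directions. Dtx1, a deltex ubiquitin ligase that binds the Notch intracellular domain and is itself a Notch target in lymphocytes, was at 9.71, 9.81 and 9.88 in col LEC, 9.54, 9.86 and 9.82 in pre-col LEC, 9.61, 9.81 and 9.69 in cap LEC, and 7.61, 7.65 and 7.62 in BEC. The LEC groups overlapped, and their mean was higher than BEC by a log2 difference of 2.12 ± 0.08 (SE, limma adjusted p = 1.45e-09). The BEC values lay below the 95th percentile of the negative controls, so that this difference can be compressed. The related Dtx3l and Dtx4 were lower, by -0.96 ± 0.12 and -0.55 ± 0.08 (adjusted p = 7.22e-05 and 0.000223). In the turnover list 1 of 10 genes tested was higher and 3 lower (median -0.12), and in the list of other direct targets 2 of 10 were higher and 2 lower (median -0.09).

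Nrarp, a feedback inhibitor that Notch induces in endothelium, was at 7.31, 7.22 and 7.24 in col LEC, 7.70, 7.36 and 7.29 in pre-col LEC, 7.28, 7.31 and 7.14 in cap LEC, and 8.23, 7.74 and 7.87 in BEC (-0.63 ± 0.11, SE, limma adjusted p = 0.00115). Heyl, the third Hey repressor, averaged 7.11 ± 0.04 in col LEC, 7.16 ± 0.11 in pre-col LEC, 6.98 ± 0.16 in cap LEC and 7.57 ± 0.13 in BEC (SD, n = 3 each), a log2 fold change of -0.48 ± 0.08 (SE, adjusted p = 0.000851). Hes1, a repressor that answers Notch and other signals, was higher instead, at 8.71 ± 0.25 in col LEC, 8.64 ± 0.12 in pre-col LEC, 8.72 ± 0.05 in cap LEC and 8.19 ± 0.03 in BEC (SD, n = 3 each), a log2 fold change of 0.50 ± 0.09 (SE, adjusted p = 0.00173). Within each of these 3 genes LEC and BEC arrays did not overlap. All 3 lay below the 95th percentile of the negative controls on all 12 arrays, so that by that measure none was set apart from background.

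**Figure D5:**
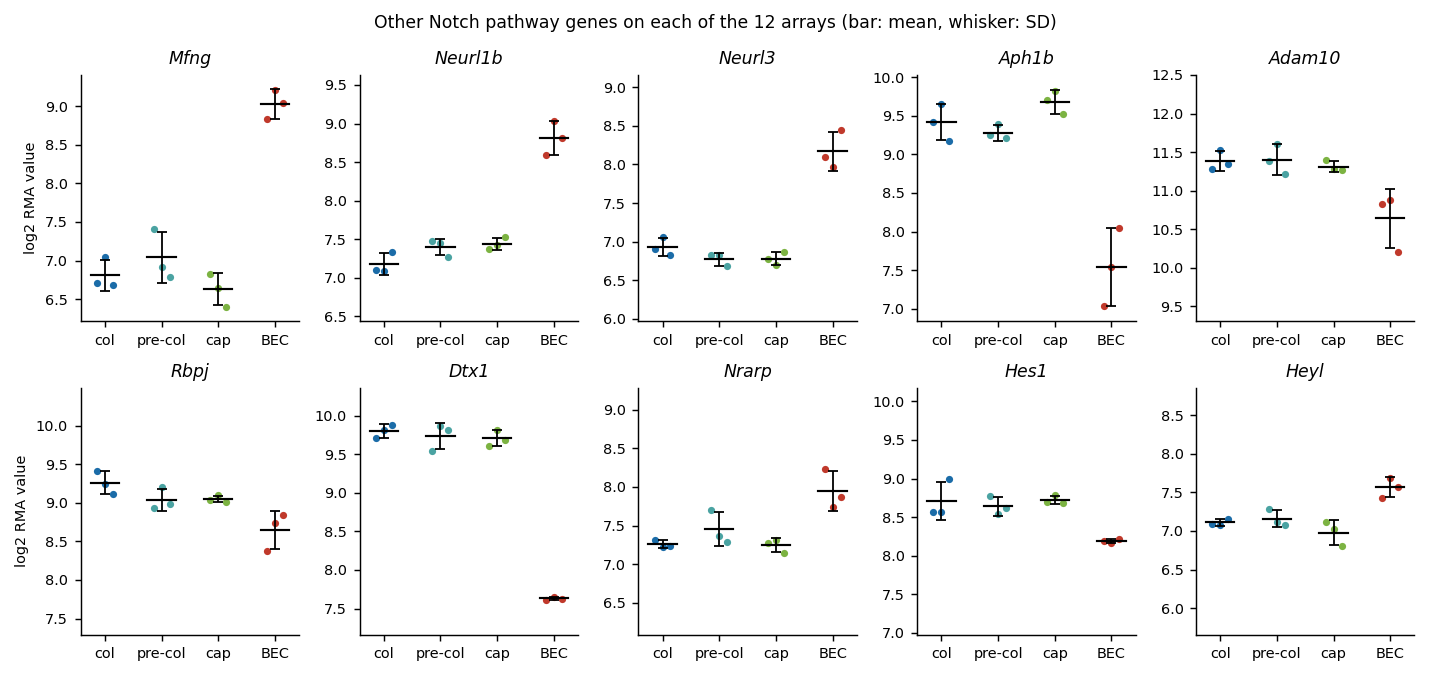
Log2 RMA value of 10 other pathway genes on each of the 12 arrays (points) with the mean (bar) and SD (whisker) of the 3 arrays in each group; every panel spans the same range on its own axis. Aph1b, Adam10, Rbpj, Dtx1 and Hes1 are higher in the LEC groups, and Mfng, Neurl1b, Neurl3, Nrarp and Heyl are higher in BEC.

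Genes linked with Notch through arterial identity had 5 of 19 tested higher in the mean of the LEC groups than in BEC and 10 lower (median -0.68). The 4 with the smallest adjusted p were the chemokine receptor gene Cxcr4 (-5.06 ± 0.15), the transcription factor gene Mecom (-2.17 ± 0.08), the arterial transcription factor gene Sox17 (-2.88 ± 0.10) and the VEGF receptor gene Flt1 (-5.01 ± 0.21), all lower in LEC (SE, limma adjusted p = 3.64e-10, 1.22e-09, 1.35e-09 and 5.21e-09). Against that direction, Bmx (1.24 ± 0.12), the valve gene Foxc2 (0.99 ± 0.11), the arterial connexin gene Gja4 (0.47 ± 0.08), the arterial ephrin gene Efnb2 (0.43 ± 0.07) and Unc5b (0.32 ± 0.09) were higher in LEC, the 5 being named after their values were seen. In the venous list the adhesion gene Selp (-4.24), Vwf (-3.80) and Aplnr (-5.04) were among 4 of 7 genes lower. Nr2f2, which encodes a factor that holds down Notch signalling in veins, was the 1 gene higher, at 1.65 ± 0.11 (adjusted p = 2.75e-07).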

How the data were processed

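The values used are those the authors deposited, on a log2 scale that the values themselves show; RMA is named per the submitters' processing notes; per the labels' protocols they come from 500 pg of total RNA per sample, amplified as sense-strand cDNA. RMA subtracts background, brings arrays to a common distribution and summarises probes, which compresses weak signals. The software and annotation behind it: not given in the sources used here.

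Rows naming 1 gene were kept (31216 of 72688 rows), symbols were updated through Entrez IDs with RefSeq names (GRCm38.p6), and each gene took its brightest row. Genes above the array median on at least 3 of 12 arrays were tested with limma 3.58.1 in R 4.3.3 (lmFit on all arrays, eBayes, two-sided, Benjamini-Hochberg over all genes tested, call at adjusted p under 0.05); prior and residual degrees of freedom were 3.63 and 8. The number of arrays, not a depth, limits precision. The procedure was tested on simulated data. Plots used matplotlib 3.10.9.

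Members and lists were chosen with earlier results of these data known. Named from the lists were up to 4 called genes per list and comparison by smallest adjusted p, and the 3 genes nearest to each member called in a pairwise comparison.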

Additional observations from a re-analysis of the deposited data

How the results depend on the processing

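All members called in LEC against BEC in the main setting, other than Notch1 and Hey1, kept their call and direction under every alternative run: no filter, a stricter filter, cyclic loess, the mean of a gene's rows, array weights, the replicate block, only the groups compared, another variance prior, and leaving out each array. The count of members called stayed within 1.5 times its main value, except in col LEC minus cap LEC, where it was 1 with array weights and 0 to 1 without single arrays (1 without cap LEC replicate 1). With the replicate number as a block the counts were 0 in the 3 comparisons between LEC groups and 7 in each comparison with BEC; deviations of same-numbered arrays correlated between -0.093 and 0.208 (median 0.0915) and those of other pairs between -0.143 and 0.176 (median -0.0345). For 8 of 12 arrays the best partner had the same number, a hint of pairing from the data; the labels give none and some same-numbered pairs correlated below 0, so the numbers were not taken to pair arrays. The block added Hey1 in col LEC minus BEC (adjusted p = 0.0395) and changed no other member's call.

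Values near 0 that had no call changed sign, again with no call. After cyclic loess these were Notch1 in col LEC minus BEC (-0.059), Dll1 in pre-col LEC minus cap LEC (0.028) and in the LEC mean minus BEC (-0.004), and Dll4 in pre-col LEC minus cap LEC (0.025). With array weights they were Dll1 (0.052) and Jag1 (-0.057) in pre-col LEC minus cap LEC. Leaving out single arrays gave ranges that cross 0, from the lowest to the highest value. For Dll1 they were -0.193 to 0.175 in pre-col LEC minus cap LEC (0.065 without cap LEC replicate 3), -0.235 to 0.134 in pre-col LEC minus BEC, -0.116 to 0.019 in cap LEC minus BEC (0.002 without BEC replicate 2) and -0.034 to 0.101 in the LEC mean minus BEC (-0.021 without pre-col LEC replicate 2). In col LEC minus cap LEC they were -0.019 to 0.086 for Notch3, -0.031 to 0.055 for Notch4 and -0.322 to 0.032 for Hey1. In col LEC minus pre-col LEC they were -0.06 to 0.012 for Dll4 and -0.077 to 0.277 for Hey1. In pre-col LEC minus cap LEC they were -0.094 to 0.007 for Dll4, -0.065 to 0.123 for Jag1 (-0.026 without pre-col LEC replicate 2) and -0.044 to 0.148 for Hey2 (-0.043 without cap LEC replicate 3). The causes were not tested. Leaving out arrays for Hey2 was added after seeing that it failed the filter. Of 42 other listed genes called in the LEC mean minus BEC, arterial and venous genes among them, 35 kept their call in every alternative. Adam17, Dlk2, Ep300, Maml3, Psenen, Snw1 and Unc5b did not.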
